A study of Mus musculus with 12 samples.

Results

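The genes described here are 35 genes of fatty acid uptake and beta-oxidation, taken by gene symbol from the 17397 genes of a count table of mouse heart RNA. All 35 were found, and all 35 passed the filter on low counts in both fits used below. Hearts of male wild-type C57BL/6J mice, 8 weeks old, were profiled in 4 groups of 3 libraries. Tumour trained mice received 100000 B16F10 cells, a mouse melanoma line, into the tail vein from week 2 and ran on a treadmill on 5 days a week for 4 weeks. Tumour mice received the same cells and stayed in their cages, which is the study's model of cancer cachexia. Trained mice ran on the same schedule without melanoma cells. Control mice neither ran nor received cells and are labelled as given saline, and the label of the trained mice names exercise alone. Nothing states whether libraries of a group came from different mice. The tests therefore compare groups with the variation among these libraries, which may be technical.

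The heart takes most of its energy from fatty acids. They enter the cardiomyocyte through transport proteins, are bound in the cytosol by Fabp3, are joined to coenzyme A by the Acsl enzymes, and cross into mitochondria as carnitine esters through Cpt1 and Cpt2. Malonyl-CoA made by Acacb inhibits Cpt1. Inside, repeated rounds of dehydrogenation, hydration, a further oxidation and thiolysis shorten the chain, and electrons pass through the electron transfer flavoprotein (Etfa, Etfb) and Etfdh to the respiratory chain. Peroxisomes run a separate pathway, in which Ehhadh acts, and several of these genes are known targets of the nuclear receptor PPAR alpha.

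Libraries held 8843909 to 13344847 counts, and values below are CPM, scaled to a library size adjusted by TMM (trimmed mean of M values). The tumour group was not uniform. A list of 7 melanocyte genes made up 1.18% of all counts in tumour 1 (95% Wilson interval 1.17 to 1.19, counting error only), 0.543% of tumour 2 (0.539 to 0.547) and 0.00178% of tumour 3 (0.00155 to 0.00204), against at most 0.00104% in the libraries of the other groups. A list of 15 cardiomyocyte genes held 2.57% of counts in tumour 1, 6.31% in tumour 2 and 9.79% in tumour 3, against at least 9.89% in the other 9 libraries. The extraction protocol speaks of livers, whereas the tissue label is heart: the cardiac myosin gene Myh6 was at 32179 to 37543 CPM in the 10 libraries other than tumour 1 and 2, and 7 hepatocyte genes summed to at most 9.00 CPM. Tumour 3 was therefore also set against the other groups in a fit of the 10 libraries without tumour 1 and 2. Its own spread cannot be estimated from 1 library and is assumed to equal that of the other groups. In whole-heart RNA, fewer cells of a type and less RNA per cell cannot be told apart.

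Among the 35 genes, Ehhadh and Cpt1a were the ones whose levels in tumour 3 passed the test against control hearts. Their promoters (RefSeq, GRCm38.p6, 250 bases before to 50 bases after the transcription start, printed 5′ to 3′ on the gene's strand) are shown for this reason. Ehhadh lies at chr16:21787785-21788084 on the minus strand and Cpt1a at chr19:3323051-3323350 on the plus strand. Capitals mark a CCAAT box, the Sp1 box with the letters GGGCGG, or the hexamer AGGTCA, each on either strand.
Ehhadh: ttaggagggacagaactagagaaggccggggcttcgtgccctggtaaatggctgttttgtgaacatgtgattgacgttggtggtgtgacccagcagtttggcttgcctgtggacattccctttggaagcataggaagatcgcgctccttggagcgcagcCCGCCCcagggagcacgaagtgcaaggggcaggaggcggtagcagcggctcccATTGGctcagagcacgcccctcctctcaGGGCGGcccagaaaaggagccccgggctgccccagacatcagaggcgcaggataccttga
Cpt1a: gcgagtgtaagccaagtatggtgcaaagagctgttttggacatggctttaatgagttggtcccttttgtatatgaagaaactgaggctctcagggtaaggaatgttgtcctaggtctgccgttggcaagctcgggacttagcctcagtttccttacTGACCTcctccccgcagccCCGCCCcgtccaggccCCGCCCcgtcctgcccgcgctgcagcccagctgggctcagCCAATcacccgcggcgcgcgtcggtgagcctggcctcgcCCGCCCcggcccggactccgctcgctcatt
The Ehhadh window held 1 CCAAT box, 2 Sp1 boxes and no AGGTCA hexamer, and the Cpt1a window held 1, 3 and 1 of them. The hexamer, which PPAR receptors bind as a direct repeat, stood in 6 of the 35 windows found for 30 of the genes (17.1%) and in 16.3% of all 32851 mouse promoters in the table. The exact repeat of the hexamer with 1 base between its copies stood in none of the 35 windows and in 0.0396% of all promoters. The Sp1 box stood in 26 of the 35 windows (74.3%) against 35.7% of all promoters, and the CCAAT box in 17 (48.6%) against 37.4%. A match is a description of these letters in these windows. Acaa2, Acad9, Cpt1b, Crat and Decr1 were not matched.

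Across the 12 libraries, the median of the 35 genes lay furthest from control in the 3 tumour hearts, and not in 1 direction. The median over the genes of the log2 ratio to the control mean (0.5 CPM added to both) was -1.56 in tumour 1, -0.58 in tumour 2 and 0.19 in tumour 3, where the median of all 12778 genes tested was 0.09, 0.08 and 0.01. In tumour 1, 29 of the 35 genes lay below all 3 control libraries and 6 above, where 42% of all genes lay below and 48.2% above. In tumour 2, 26 lay below and 4 above (all genes 33.6% and 45.4%). In tumour 3, 25 lay above and 3 below (all genes 31.9% and 29%). The tumour trained libraries had medians from -0.0647 to 0.0441 and the trained libraries from -0.0957 to -0.00143. A median near 0 can hold differences in both directions. In trained 2, with the median of -0.00143, 13 of the 35 genes lay above all 3 controls and 13 below (all genes 30.6% and 34.3%).

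**Figure D1:**
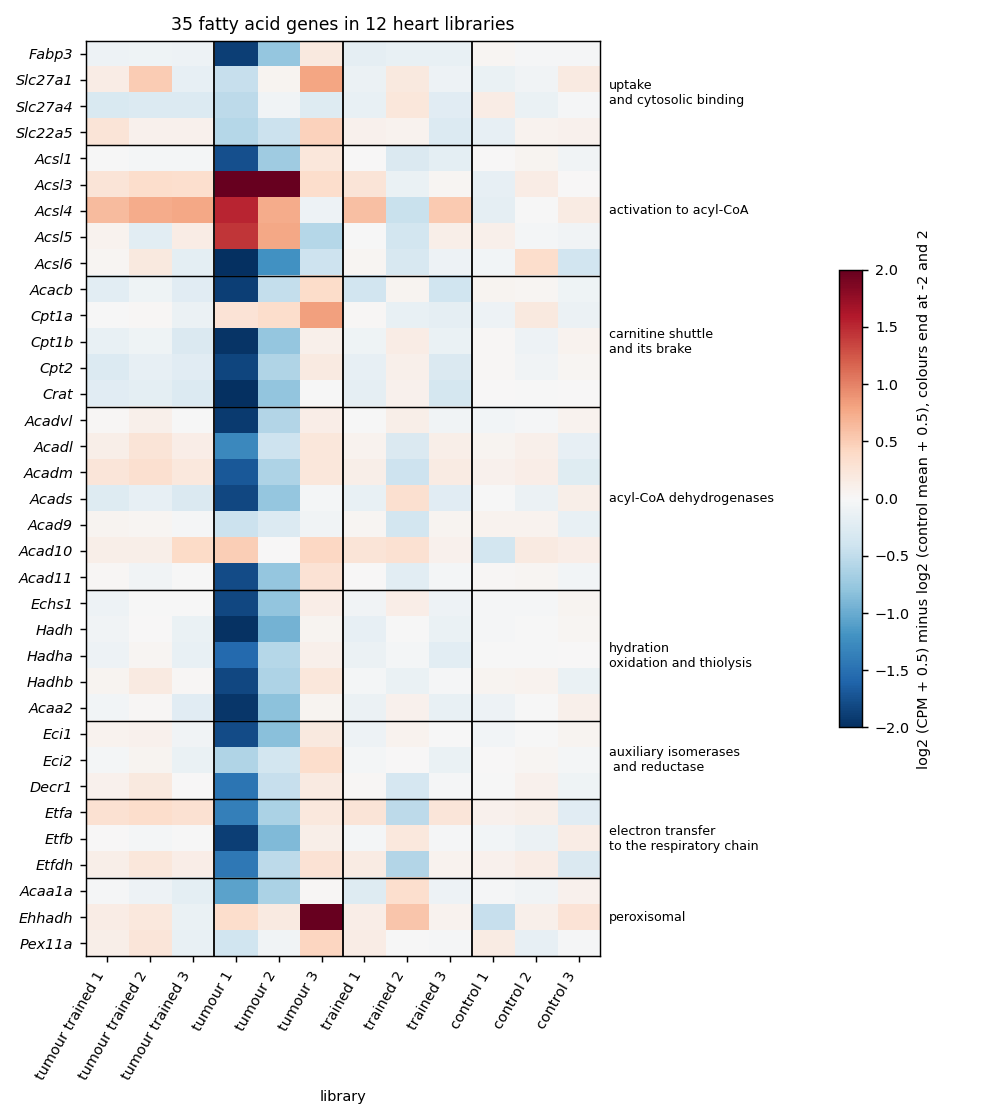
Log2 ratio to the mean of the 3 control libraries for each of the 35 genes (rows, by role) in each of the 12 libraries (columns, by group), from scaled CPM with 0.5 added. Tumour 1 and 2 are below control for most genes and above it for a few, by most for Acsl3, while tumour 3 is above all 3 controls for 25 genes and by most for Ehhadh.

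**Figure D2:**
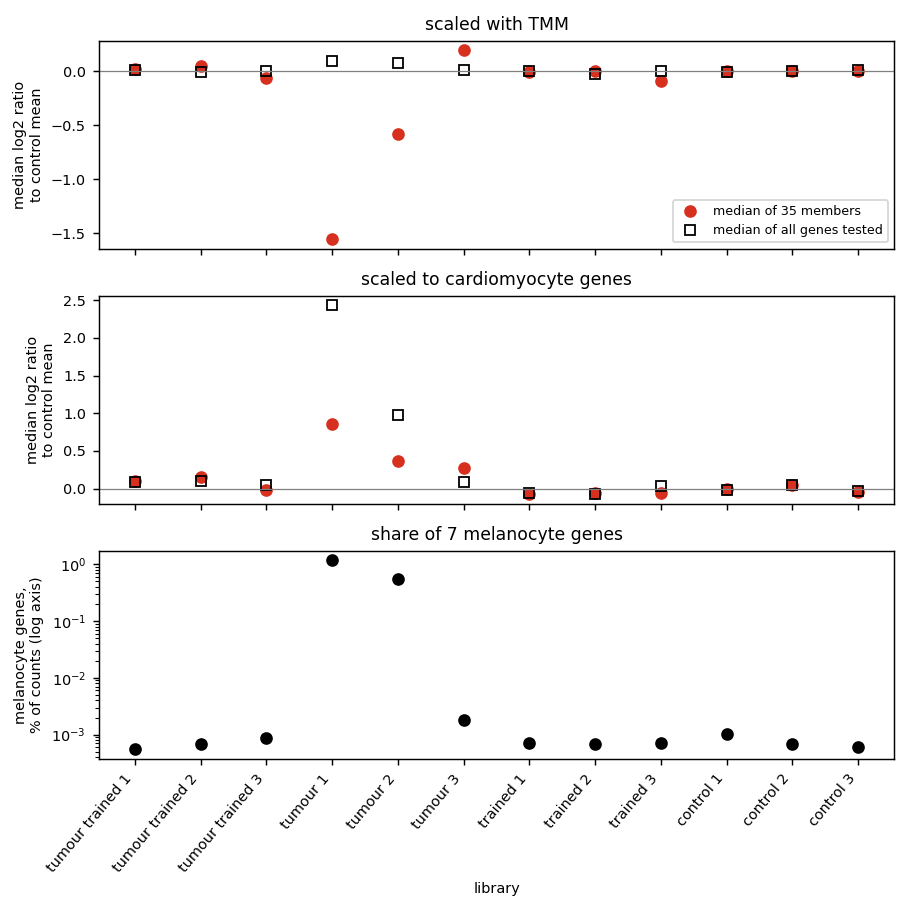
Median log2 ratio to control of the 35 genes and of all genes tested in each library, with TMM scaling and with counts scaled to 15 cardiomyocyte genes. With TMM scaling the 35 genes have medians of -1.56 and -0.58 in tumour 1 and 2; with cardiomyocyte scaling these are 0.86 and 0.36, below the medians of all genes, 2.43 and 0.98. The lowest panel gives the share of counts of 7 melanocyte genes on a log axis, high in tumour 1 and 2.

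Tumour 3 had higher Ehhadh and Cpt1a than control hearts, and small upward differences in most other genes of the pathway that did not pass the test. Of the 35 genes, 2 rose and none fell (edgeR quasi-likelihood test, Benjamini-Hochberg adjusted p under 0.05 over 12995 genes), against 0.87% of all genes called higher and 0.531% called lower. The median log2 change of the 35 genes was 0.20, against 0.02 over all genes, with 29 of 35 above 0. A total of 10 genes had an unadjusted p under 0.05, where 12.9% of all genes did. In 19 of the 35 genes tumour 3 lay above all 9 libraries of the other groups, where 15.7% of all genes did, and in 2 (Acsl5 and Acsl6) below all 9, where 12.3% did.

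Ehhadh (gene ID 74147), the bifunctional hydratase and dehydrogenase of peroxisomal beta-oxidation, was at 24.1, 25.2 and 19.8 CPM across the tumour trained libraries 1, 2 and 3, 27.9, 24.6 and 90.4 CPM across the tumour libraries 1, 2 and 3, 24.0, 32.2 and 22.9 CPM in the trained libraries and 15.7, 23.3 and 26.3 CPM in the control libraries. Tumour 3 stood alone: the other 11 libraries ran from 15.7 to 32.2 CPM. The log2 change of tumour 3 against control was 2.07 ± 0.25 (SE; edgeR adjusted p = 0.00222), and it stayed past the threshold in all 17 alternatives run, at adjusted p = 4.80e-10 to 0.0140. In the other peroxisomal genes the differences were smaller. Pex11a, which takes part in peroxisome division, was at 33.6 CPM in tumour 3 and at 22.1 to 28.1 CPM in controls (log2 0.44 ± 0.18, edgeR adjusted p = 0.322). The peroxisomal thiolase Acaa1a, at 80.8 CPM in tumour 3, lay within the 75.6 to 84.2 CPM of the controls. Its near-identical copy Acaa1b held 0 or about 1 count in each library, and reads of the pair may have been shared out between them.

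Cpt1a (gene ID 12894), the liver-type carnitine palmitoyltransferase of the outer mitochondrial membrane, was at 68.4, 70.0 and 63.3 CPM across the tumour trained libraries 1, 2 and 3, 83.6, 88.4 and 122 CPM across the tumour libraries 1, 2 and 3, 70.3, 62.3 and 61.1 CPM in the trained libraries and 64.3, 79.1 and 63.6 CPM in the controls. All 3 tumour libraries were above all 9 of the other groups, tumour 3 by most. In 14.2% of all genes the 3 tumour libraries lay above the 3 controls. The part of the melanocyte share in the Cpt1a levels of tumour 1 and 2 was not tested. In tumour 3 the log2 change against control was 0.83 ± 0.15 (SE; edgeR adjusted p = 0.0201), and the call ended without control 3 (adjusted p = 0.0678). Cpt1b, the muscle-type form of the same enzyme, was at 219, 497 and 906 CPM across the tumour libraries 1, 2 and 3, against 862, 793 and 889 CPM in the controls. Tumour 3 thus stood just above the controls in Cpt1b, with tumour 1 and 2 far below them. The Cpt1b change in tumour 3 was 0.11 ± 0.13 on the log2 scale (adjusted p = 0.858).

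No other gene of the carnitine step was called in tumour 3. Acacb, acetyl-CoA carboxylase 2, was at 455, 494 and 452 CPM across the tumour trained libraries 1, 2 and 3, 142, 379.8 and 679.6 CPM across the tumour libraries 1, 2 and 3, 403, 547 and 401 CPM in the trained libraries and 547, 538 and 493 CPM in the controls. Tumour 3 had the highest Acacb of the 12 libraries and tumour 1 the lowest. Its log2 change of 0.38 ± 0.17 in tumour 3 did not pass (edgeR adjusted p = 0.359). Cpt2, which remakes acyl-CoA on the inner membrane, was at 428 CPM in tumour 3 and 359 to 388 CPM in controls, and Crat, carnitine acetyltransferase, at 805 and 799.7 to 815 CPM (log2 0.19 and 0.00).

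Uptake genes had a median log2 difference of 0.34 in tumour 3, with none of the 4 called. Slc27a1, the fatty acid transport protein FATP1, was at 187, 239 and 151 CPM across the tumour trained libraries 1, 2 and 3, 122, 176 and 292 CPM across the tumour libraries 1, 2 and 3, 156, 193 and 157 CPM in the trained libraries and 154, 161 and 190.1 CPM in the controls. Tumour 3 was the highest, but its log2 change of 0.81 ± 0.22 gave adjusted p = 0.115 (edgeR). Slc22a5, which carries carnitine into the cell, was at 47.2 CPM in tumour 3 and 30.3 to 36.1 CPM in controls (log2 0.48 ± 0.17, adjusted p = 0.255). Fabp3, the heart-type fatty acid binding protein, was at 3567, 3592 and 3545 CPM across the tumour trained libraries 1, 2 and 3, 1035, 2243 and 4363 CPM across the tumour libraries 1, 2 and 3, 3373, 3452 and 3457 CPM in the trained libraries and 3927, 3749 and 3773 CPM in the controls. Fabp3 was highest in tumour 3 (log2 0.20 ± 0.09, adjusted p = 0.348) and lowest in tumour 1. Slc27a4, another transport protein of the family, lay below the controls in tumour 3, at 27.1 CPM against 29.6 to 36.1 CPM.

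**Figure D3:**
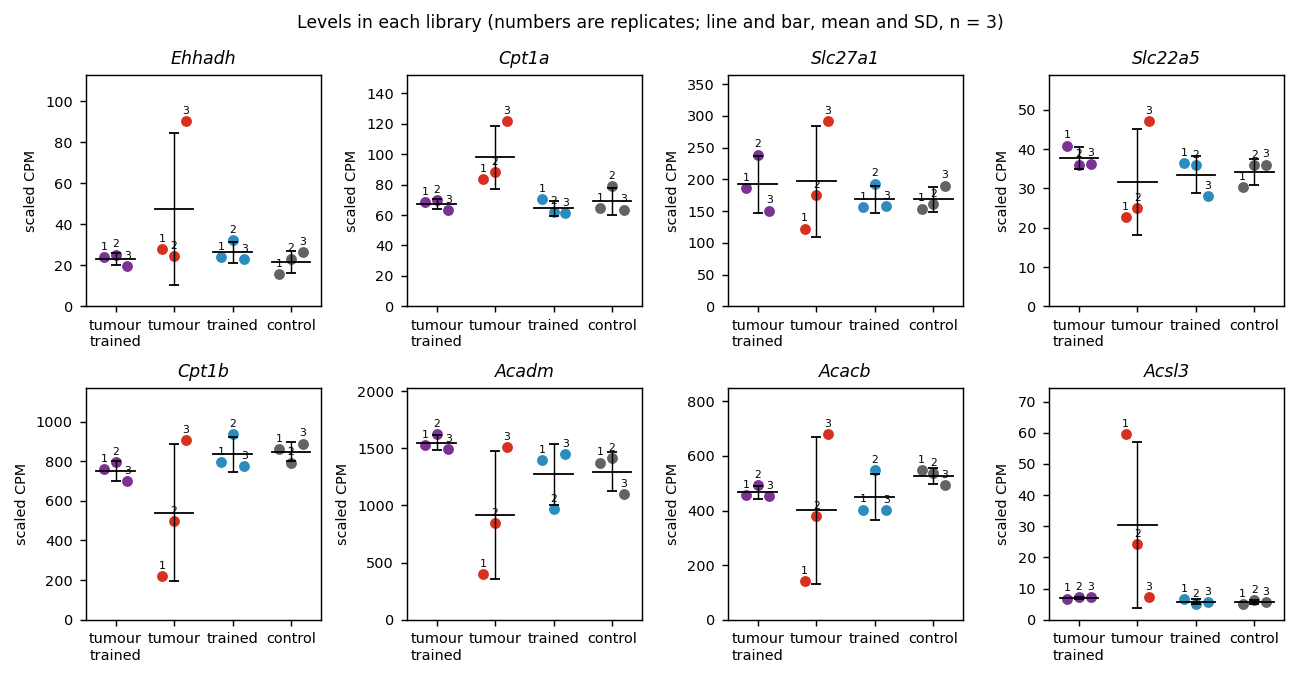
Scaled CPM in each of the 12 libraries (points) by group for genes described in the text, with group means and SD. In Ehhadh and Cpt1a tumour 3 is the highest point; in Acsl3 tumour 1 and 2 are, and tumour 3 lies with the other groups.

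The acyl-CoA dehydrogenases and the enzymes of hydration, further oxidation and thiolysis differed little from control in tumour 3. Each log2 change was under 0.5 in size, and none was called. Acadm, the medium-chain acyl-CoA dehydrogenase, was at 1531, 1623 and 1493 CPM across the tumour trained libraries 1, 2 and 3, 399, 843 and 1508 CPM across the tumour libraries 1, 2 and 3, 1399.8, 967 and 1452 CPM in the trained libraries and 1374, 1415 and 1096 CPM in the controls. Tumour 3 lay within the range of the other groups, and trained 2 and control 3 were the low libraries among them. The 7 acyl-CoA dehydrogenase genes ranged from -0.06 (Acad9, also an assembly factor of respiratory complex I) to 0.45 (Acad10), and Acad11 had an unadjusted p under 0.05 at a log2 change of 0.30 ± 0.12 (adjusted p = 0.278). Hadha, the alpha subunit of the mitochondrial trifunctional protein, was at 2088, 2304 and 2029 CPM across the tumour trained libraries 1, 2 and 3, 765, 1521 and 2427 CPM across the tumour libraries 1, 2 and 3, 2068, 2187 and 1954 CPM in the trained libraries and 2248, 2251 and 2258 CPM in the controls. Hadha in tumour 3 stood above all other libraries by a small margin (log2 0.12 ± 0.11, adjusted p = 0.755). Its partner subunit Hadhb differed by 0.23, the hydratase Echs1 by 0.15, the hydroxyacyl dehydrogenase Hadh by 0.06 and the thiolase Acaa2 by 0.07 on the same scale.

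The auxiliary enzymes, which handle unsaturated chains, and the electron carriers gave the same small differences. Eci2, an enoyl-CoA isomerase, was at 244 CPM in tumour 3 and 174 to 200.2 CPM in the 9 libraries of the other groups, a log2 change from control of 0.36 ± 0.12 (edgeR adjusted p = 0.194). Eci1 and Decr1 differed by 0.21 and 0.20. Etfdh, which hands electrons to ubiquinone, was at 771, 831 and 783 CPM across the tumour trained libraries 1, 2 and 3, 265, 492 and 867 CPM across the tumour libraries 1, 2 and 3, 799.8, 475 and 746 CPM in the trained libraries and 758, 791 and 585 CPM in the controls. The Etfdh level of tumour 3 was the highest, but trained 2 and control 3 were low within their own groups, and the log2 change was 0.30 ± 0.24 (adjusted p = 0.702). Etfa and Etfb differed by 0.22 and 0.13.

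The 5 Acsl enzymes differed in both directions in tumour 3, and none was called. Acsl1, the main long-chain acyl-CoA synthetase of heart, was at 1258, 1239 and 1237 CPM across the tumour trained libraries 1, 2 and 3, 375, 772 and 1484 CPM across the tumour libraries 1, 2 and 3, 1272, 1043 and 1109 CPM in the trained libraries and 1279, 1318 and 1209.6 CPM in the controls. It was highest in tumour 3 (log2 0.24 ± 0.12, edgeR adjusted p = 0.435). Acsl5 was lower in tumour 3 than in every library of the other groups, at 13.5 CPM against 15.5 to 22.4 CPM (log2 against control -0.57 ± 0.22, adjusted p = 0.288). Acsl6, at 17.0 CPM against 17.3 to 29.1 CPM, was lower than all 9 by a small margin.

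**Figure D4:**
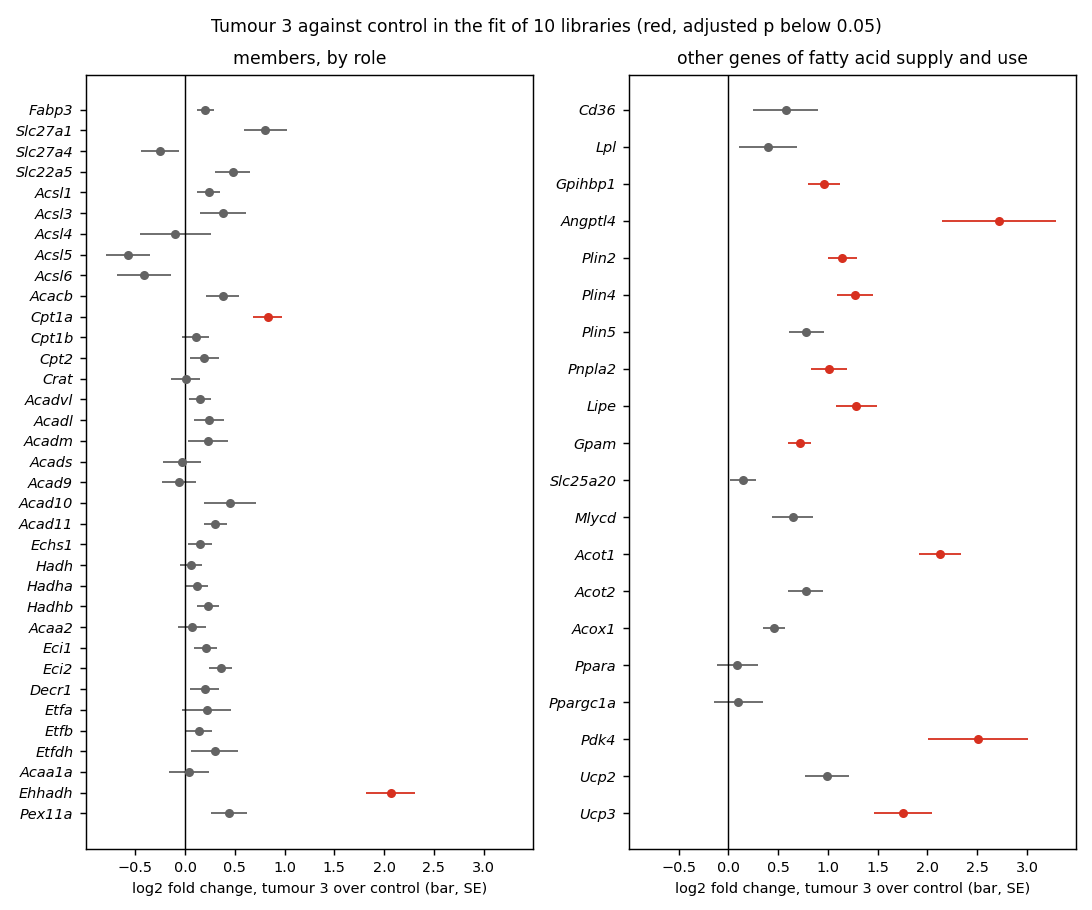
Log2 change of tumour 3 against the 3 control libraries with SE (edgeR fit of 10 libraries) for the 35 genes and for further genes of lipid supply and PPAR targets. Ehhadh, at 2.07, and Cpt1a, at 0.83, passed the adjusted threshold among the 35, and most others lie between 0 and 0.5.

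Over all 3 tumour libraries, with 1 mean per group in the fit of 12 libraries, Acsl3 was the only one of the 35 genes called against control. It rose, where 5.33% of all 12778 genes were called higher and 1.46% lower. Acsl3 (gene ID 74205), a synthetase of the endoplasmic reticulum and lipid droplets, was at 6.76, 7.23 and 7.16 CPM across the tumour trained libraries 1, 2 and 3, 59.5, 24.2 and 7.20 CPM across the tumour libraries 1, 2 and 3, 6.71, 5.03 and 5.75 CPM in the trained libraries and 4.88, 6.23 and 5.57 CPM in the controls. Its level followed the melanocyte share, high in tumour 1 and 2 and within the other groups' range in tumour 3, and the part of that share in the result was not tested. The log2 change was 2.45 ± 0.55 (SE; edgeR adjusted p = 0.0390), and in the 12 fits that each left out 1 library the call held only in the fit without tumour 3. In tumour 3 alone it was 0.38 ± 0.23 (adjusted p = 0.544). Without tumour 3, 29 of the 35 genes were called, 3 higher and 26 lower, where 7043 of 13289 genes were called in either direction.

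Acsl4, which prefers arachidonic acid, was at 25.5, 14.7 and 7.94 CPM across the tumour libraries 1, 2 and 3 and 7.47, 8.57 and 9.67 CPM in the controls. Acsl5 was at 55.3, 34.7 and 13.5 CPM across the tumour libraries 1, 2 and 3 and 21.6, 19.7 and 19.2 CPM in the controls. Both were high in tumour 1 and 2 and not in tumour 3, and neither was called (edgeR adjusted p = 0.122 for Acsl4 and 0.159 for Acsl5). Acsl6 went the other way, at 4.79, 9.54 and 17.0 CPM across the tumour libraries 1, 2 and 3 and 21.9, 29.1 and 17.3 CPM in the controls (adjusted p = 0.0706).

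In tumour 1 and 2 most of the pathway was low, and so was the share of cardiomyocyte transcripts; its part in the result was not tested. The 35 genes together held 0.906% of the counts of tumour 1 (0.901 to 0.911) and 1.63% of tumour 2, against 2.09% to 2.47% in the other 10 libraries. The median log2 change of the tumour group against control was -0.49, against 0.11 over all genes. Scaled instead to the 15 cardiomyocyte genes, 34 of the 35 genes lay above all controls in tumour 1, 32 in tumour 2 and 29 in tumour 3, where 95.4%, 90.8% and 42.7% of all genes did. That scaling moved the median of all genes to 2.43 in tumour 1 and 0.98 in tumour 2, so the 35 genes were then low relative to the other genes of those libraries. The direction in tumour 1 and 2 therefore depends on the scaling, and in tumour 3 the median was above 0 under both (0.19 and 0.28).

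With cardiomyocyte scaling, genes differed in how tumour 3 compared with tumour 1 and 2. Acsl3 was at 5.69, 2.93 and 0.41 (log2 ratio to control) in tumour 1, 2 and 3, far higher in the melanoma-rich pair. Cpt1b was at 0.46, 0.18 and 0.18 and Acacb at 0.53, 0.47 and 0.45, each within a narrow range across the 3 hearts. Slc27a1 was at 1.96, 1.01 and 0.88, Cpt1a at 2.68, 1.29 and 0.89 and Ehhadh at 2.74, 1.10 and 2.11. The medians of all genes under the same scaling were 2.43, 0.98 and 0.09. Ehhadh stood far from this median in tumour 3 and close to it in tumour 1 and 2. Cpt1a was likewise nearer to it in tumour 1 and 2 than in tumour 3.

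All 3 tumour libraries lay above all 3 controls in 2 of the 35 genes, Acsl3 and Cpt1a, where 14.2% of all genes did. They lay below in 1, Acsl6, where 11.8% did. Neither share of the 35 genes was above the background.

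Training in melanoma-bearing mice was read against the tumour group and against tumour 3. In the fit of 12 libraries Acsl3 was the only gene of the 35 called, lower in tumour trained than in tumour hearts (log2 -2.11 ± 0.54, edgeR adjusted p = 0.0408), where 1.79% of all genes were called higher and 7.25% lower. The call ended in 10 of the 12 fits that left out 1 library, and against tumour 3 alone the Acsl3 change was -0.05 ± 0.23 (adjusted p = 0.941). The median of the 35 genes was 0.48 (all genes -0.04), with 27 of 35 above 0. The 3 largest positive log2 changes were 1.16 ± 0.37 in Acsl6, 0.78 ± 0.34 in Etfa and 0.76 ± 0.38 in Acadm, none called (adjusted p = 0.0639, 0.147 and 0.190). The cardiomyocyte share, low in tumour 1 and 2, moves with these values, and its part in them was not tested. Without tumour 3, 28 of the 35 were called, 26 higher and 2 lower, where 6619 of 13289 genes were.

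Against tumour 3 alone, tumour trained hearts had lower Ehhadh and Cpt1a. These were the 2 of 35 genes called, both lower, where 0.123% of all genes were called higher and 0.593% lower. Ehhadh was at 23.0 ± 2.87 CPM in tumour trained hearts (SD, n = 3) and 90.4 CPM in tumour 3, a log2 change of -1.99 ± 0.25 (SE; edgeR adjusted p = 0.00370). Cpt1a was at 67.3 ± 3.48 CPM in tumour trained hearts and 122 CPM in tumour 3 (log2 -0.87 ± 0.15, adjusted p = 0.0197), and lost the call without any 1 of the 3 tumour trained libraries (adjusted p up to 0.0993). The median of the 35 genes was -0.18 (all genes -5.25e-04) and 11 had an unadjusted p under 0.05, where 14.7% of all genes did. Slc27a1 (-0.62 ± 0.22, adjusted p = 0.239), Acacb (-0.56 ± 0.16, adjusted p = 0.164) and Fabp3 (-0.31 ± 0.09, adjusted p = 0.152) were lower without passing. Acsl4 and Acsl5 were higher without passing, at 0.85 ± 0.36 and 0.58 ± 0.22. Tumour 3 is part of both comparisons, so its level enters both.

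Whether training acted differently in mice with and without melanoma was read from the interaction. None of the 35 genes was called with edgeR, where 0.0235% of all genes were, or with DESeq2, where 2.11% of all genes were. In the edgeR test 3 had an unadjusted p under 0.05, where 14.4% of all genes did. These 3 were Acsl3, Acsl6 and Ehhadh. The median interaction was 0.56 (all genes -0.08), and 0.201 to 1.10 when 1 library was left out. The 15 cardiomyocyte genes had a median interaction of 0.76, with all 15 above 0. Their low share in tumour 1 and 2 enters this contrast, and its part in the result was not tested. Without tumour 3, 24 of the 35 genes were called, 22 higher and 2 lower, where 4002 of 13289 genes were. The tumour group is then tumour 1 and 2 alone.

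In tumour-free mice, no gene of the 35 passed the test between trained and control hearts. None was called in the fit of 12 libraries (edgeR, 0 of 12778 genes, 0%), with an unadjusted p under 0.05 in 0 of the 35. DESeq2 on these libraries also called 0 of the 35, where 0.0235% of all genes were called. In the edgeR fit of 10 libraries none was called either (0.0077% of all genes). There 1 of the 35 had an unadjusted p under 0.05 (7.83% of all genes). That gene was Fabp3, at 3373, 3452 and 3457 CPM in trained and 3927, 3749 and 3773 CPM in control hearts, without overlap (log2 -0.16 ± 0.06, edgeR adjusted p = 0.595). The trained libraries lay below all controls in Fabp3 and Hadha, 2 of 35 genes where 5.44% of all genes did, and above in none, where 4.04% did. The median log2 change was -0.04.

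The spread among trained libraries was wide for part of the pathway, and trained 2 stood apart. In trained 2, Acsl4 was at 6.16 CPM against 13.3 and 12.6 CPM in trained 1 and 3. Etfa was at 402 against 689.7 and 684 CPM, and Etfdh at 475 against 799.8 and 746 CPM. Acads, a GC-rich transcript, was the other way round, at 314 against 228 and 215 CPM. Over the 35 genes the log2 ratio of trained 2 to the mean of trained 1 and 3 followed transcript GC content (Pearson 0.818, Spearman 0.793, across genes that share these libraries and are not independent). For Acsl4, with 39.0% GC, that ratio was -1.01; for Etfa (45.0%) it was -0.77, and for Acads (60.1%) 0.51. Ehhadh, with 47.0% GC, was an exception at 0.45. The ratio of control 3 to control 1 and 2 gave 0.422 and 0.5, and that of trained 3 to trained 1 gave 0.160 and 0.108. The difference of tumour 3 from control gave -0.0025 and -0.0899, near 0 in both measures.

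**Figure D5:**
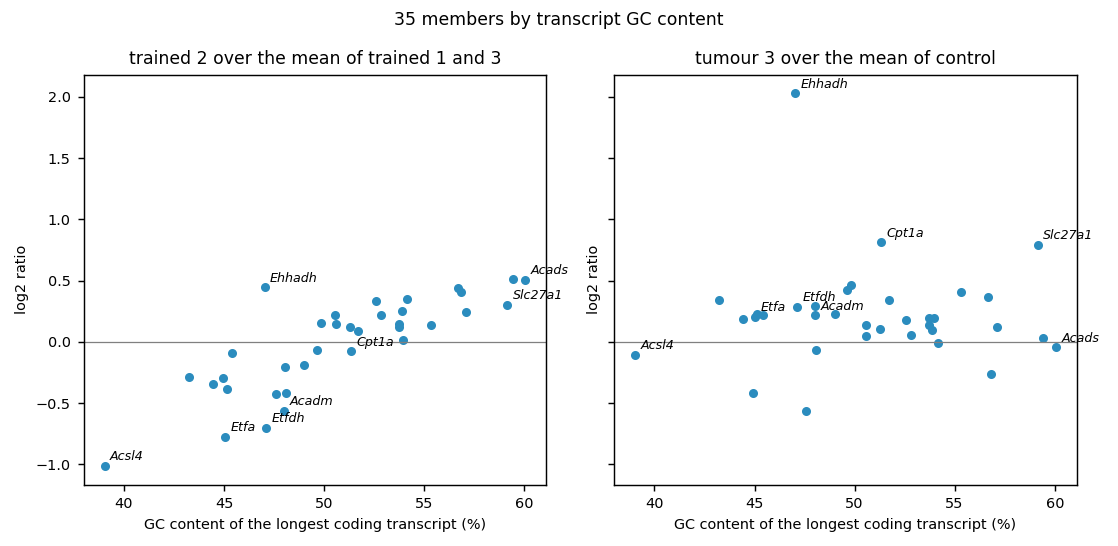
Transcript GC content (%) of the 35 genes against the log2 ratio of trained 2 to trained 1 and 3, and against the log2 ratio of tumour 3 to control. The first rises with GC content (Pearson 0.818) and the second does not (-0.0025); Ehhadh is the high point of the second.

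Without trained 2, the fit of 10 libraries called more genes in each of its 4 comparisons. In the fit of 12 libraries, tumour against control then had 8 genes called in place of 868. That drop was not particular to trained 2: without any 1 other control, trained or tumour trained library, 4 to 24 genes were called. Tumour trained against tumour had 3 to 8 genes called without any 1 of those libraries, but 1242 in place of 1156 without trained 2. Against control, in the fit of 10 libraries, tumour 3 then had 5 of the 35 higher (Ehhadh, Cpt1a, Slc27a1, Acacb and Eci2), where 5.80% of 12940 genes were called in either direction. The adjusted p were 0.0251 for Slc27a1, 0.0232 for Acacb and 0.0467 for Eci2 (edgeR). Tumour trained against tumour 3 had 9 called, 7 lower (Ehhadh, Cpt1a, Fabp3, Acacb, Cpt2, Acad11 and Eci2) and 2 higher (Acsl4 and Acsl5), where 11.8% of genes were. Trained against control had 3 called, with Acsl4 higher at 0.59 and Acacb and Crat lower at -0.39 and -0.26 on the log2 scale, where 11.5% of genes were. With trained 2 kept, edgeR on the 10 libraries called only Ehhadh and Cpt1a among these, and DESeq2 called Slc27a1 as well in tumour 3 against control. Fits of only the groups compared, which hold no trained library for the first 2 of these comparisons, also called Slc27a1 (not Acacb or Eci2) against control and all 9 genes in tumour trained against tumour 3. The 3 calls of trained against control were made in no other alternative run.

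Melanoma in trained mice did not move the pathway past the test. Tumour trained against trained called none of the 35 genes in either fit (edgeR; 0% and 0% of all genes; DESeq2 0; unadjusted p under 0.05 in 0 of the 35 in both). Medians were 0.05 in both. Set beside control, with which the other comparisons are shared, all 3 tumour trained libraries lay above all 3 controls in 5 of the 35 genes (Acadl, Acadm, Acsl3, Acsl4 and Etfa), where 21.9% of all genes did. They lay below in 5 (Acads, Cpt2, Crat, Fabp3 and Slc27a4), where 17.4% did. The transcripts of the first 5 had 39.0% to 48.0% GC and those of the others 52.6% to 60.1%. Over the 35 genes the difference of tumour trained from control ran against GC content (Pearson -0.670, Spearman -0.640), and the part of GC content in those counts was not tested.

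Beyond the 35 genes, some genes of lipid supply and some PPAR targets were higher in tumour 3. Of 22 tested genes of lipid supply and storage, 7 rose in tumour 3 against control and none fell (median log2 change 0.55), where 0.87% of all genes were called higher and 0.531% lower. Of 20 PPAR regulators and targets, 2 rose and none fell (median 0.15). Of 22 further genes of acyl-CoA metabolism, not all of them mitochondrial, 1 rose (Acot1), and their median was 0.13. Of 24 peroxisomal genes (median 0.17) and 14 fatty acid synthesis genes (median 0.025) none was called. Plin2, a lipid droplet coat protein, was at 133 CPM in tumour 3 against 59.3 to 61.9 CPM in controls (log2 1.14 ± 0.14, edgeR adjusted p = 0.00317), and Plin4, of the same family, at 710.2 against 274 to 335 CPM (1.27 ± 0.18, adjusted p = 0.00692). Lipe, hormone-sensitive lipase, and Gpihbp1, which anchors lipoprotein lipase on capillaries, rose by 1.29 and 0.96 on the log2 scale (adjusted p = 0.0116 and 0.0133). Gpam, Pnpla2 and Angptl4 (below) were the other called genes of lipid supply. Over the alternatives run, the log2 change was 0.69 to 0.79 for Gpam (call kept in 14 of 17). It was 0.97 to 1.10 for Pnpla2 (call kept in 15 of 17). Lipe, Plin4 and Pnpla2 are also genes of fat cells. The 9 adipocyte markers summed to 0.923 CPM in tumour 3 and 3.11 to 3.35 CPM in controls. Each of Adipoq, Plin1, Cidec, Lep, Adrb3 and Ucp1 was at 0 to 0.389 CPM in these 4 libraries, at or near the level of a few counts. The 7 melanocyte genes summed to 18.8 CPM in tumour 3 and 6.41 to 10.8 CPM in controls, and their part in these results was not tested.

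Pdk4, the kinase that shuts pyruvate dehydrogenase, was at 417, 886 and 511 CPM across the tumour trained libraries 1, 2 and 3, 753, 1393 and 4002 CPM across the tumour libraries 1, 2 and 3, 1392, 1126 and 567 CPM in the trained libraries and 376, 765 and 977 CPM in the controls. Pdk4 in tumour 3 was above all other libraries, which differed widely among themselves (log2 2.51 ± 0.50, edgeR adjusted p = 0.0367). Ucp3, a mitochondrial uncoupling protein of muscle, rose by 1.76 (adjusted p = 0.0144). The Pdk4 call ended without any 1 of the controls or tumour trained 3 (adjusted p up to 0.110), and the Ucp3 and Gpihbp1 calls ended without control 2 (0.0584 and 0.0509). Acot1, an acyl-CoA thioesterase, was at 104 CPM in tumour 3 against 18.3 to 29.9 CPM in the 9 libraries of the other groups (log2 2.13 ± 0.21, adjusted p = 7.01e-04). It shares near-identical sequence with Acot2 (log2 0.78, adjusted p = 0.0582), so how the reads of both were divided is uncertain.

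Among further genes of fatty acid supply and control, Gpihbp1 (above) and Angptl4, a secreted inhibitor of lipoprotein lipase, passed in tumour 3. Cd36, Lpl, Slc25a20, Mlycd, Ppara and Ppargc1a did not. Counts of Angptl4 before scaling were 645, 960 and 766 across the tumour libraries 1, 2 and 3. They were 428, 845 and 155 in the trained libraries and 82, 154 and 91 in the controls. High Angptl4 was therefore not particular to tumour 3 or to tumour hearts. The Angptl4 change was 2.72 ± 0.57 on the log2 scale (edgeR adjusted p = 0.0462), a call kept in 8 of 17 alternatives. The scavenger receptor Cd36 was at 2143 CPM against 1182 to 1634 CPM in controls (log2 0.58 ± 0.33, edgeR adjusted p = 0.522), lipoprotein lipase Lpl at 5804 against 3539.8 to 4903 CPM (0.39 ± 0.29, adjusted p = 0.664), and the carnitine-acylcarnitine carrier Slc25a20 at 293 against 261 to 271 CPM (0.15 ± 0.13, adjusted p = 0.751). Mlycd, which removes malonyl-CoA, had a log2 change of 0.65 ± 0.21 (adjusted p = 0.182). The receptor gene Ppara and its coactivator Ppargc1a had log2 changes of 0.09 ± 0.21 and 0.10 ± 0.25 (adjusted p = 0.933 and 0.937).

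In tumour trained hearts against tumour 3, 6 of 22 lipid supply genes fell and none rose (median -0.45). Of the 22 further genes of acyl-CoA metabolism 2 fell, as did 2 of 20 PPAR regulators and targets, and none rose (medians -0.20 and -0.22). Of all genes, 0.593% were called lower and 0.123% higher in this comparison. The log2 change was -1.12 for Plin2 (edgeR adjusted p = 0.00436), -1.26 for Gpihbp1 (adjusted p = 0.00370), -2.18 for Acot1 (adjusted p = 6.27e-04) and -1.44 for Plin4 (adjusted p = 0.00391). It was -1.13 for Plin5, which ties lipid droplets to mitochondria (adjusted p = 0.0114), -1.33 for the uncoupling protein gene Ucp2 (adjusted p = 0.0197), -0.90 for Acot2 (adjusted p = 0.0454) and -2.74 for Pdk4 (adjusted p = 0.0328). Only the calls of Plin2, Plin4, Gpihbp1 and Acot1 among these 8 genes held whichever library was left out. The Acot2, Pdk4 and Ucp2 calls ended without tumour trained 1 and without tumour trained 3, that of Plin5 without tumour trained 3, and those of Acot2 and Pdk4 without control 2 also (adjusted p up to 0.154). The Acot2 call also ended without control 1, control 3, trained 1 or tumour trained 2. Of the 24 peroxisomal and 14 synthesis genes none was called in this comparison (medians -0.17 and -0.15).

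In the fit of 12 libraries, tumour against control had 2 of 22 lipid supply genes higher, where 5.33% of all genes were (Plin2, log2 0.96 ± 0.14, and Angptl4, 2.44 ± 0.50; edgeR adjusted p = 0.0283 and 0.0390). Acaca, which makes the malonyl-CoA used in synthesis, was the 1 of the 22 further genes of acyl-CoA metabolism called, also higher. Counts of Acaca before scaling were 1105, 593 and 330 across the tumour libraries 1, 2 and 3, against 221, 249 and 183 in the controls. They ran with the melanocyte share, whose part in the result was not tested. Of the 24 peroxisomal and 20 PPAR genes none was called. Each of these calls ended in at least 10 of the 12 fits that left out 1 library; those without tumour 3 kept them. Plin2 was at 113, 108 and 133 CPM across the tumour libraries 1, 2 and 3, against 59.3, 61.9 and 60.9 CPM in the controls, high in all 3 tumour hearts. Tumour trained against tumour had Plin2, Angptl4, Acaca and Ucp2 lower, where 7.25% of all genes were, calls that ended in at least 9 of the 12 such fits. None of the genes of these lists was called in trained against control or in tumour trained against trained (edgeR, fit of 10 libraries).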

How the data were processed

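RNA sequencing counts of 12 mouse heart libraries were used. The values are estimated counts per gene, deposited by the authors as 1 table and not normalized; 7.09% to 8.92% of the values of a library were not whole. The submitters' processing notes name the aligner HISAT2 2.2.1, the counter featureCounts and the builds GRCm39 and mm10. Not given in the sources used here are which build and annotation gave the table, the strand setting and how shared reads were divided. Reads of overlapping or antisense genes may therefore be mixed.

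Groups came from sample titles and labels. Estimated counts were rounded to whole numbers. Genes were tested with edgeR 4.0.16 (R 4.3.3) by quasi-likelihood, in 1 fit of 12 libraries with 1 mean per group (8 residual degrees of freedom; edgeR's filterByExpr kept 12778 genes and removed 4619) and 1 fit of 10 libraries without tumour 1 and 2 (6 degrees; 12995 kept, 4402 removed). Adjusted p are Benjamini-Hochberg values over all genes tested, and SE is the size of the log2 change divided by the square root of F. Levels are TMM-scaled CPM. A count of 3 equals 0.225 to 0.339 CPM, and intervals cover counting error only. Replicates differed by more than sampling noise, with chi-square per gene of 3.67 (tumour trained 1 and 3) to 370 (tumour 1 and 3), and none was merged. The scripts were tested on simulated counts.

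The 35 genes, the pathway lists and the marker lists were chosen with earlier results of these data known. Values per library were set to be given for each of the 35 that was called and for Fabp3, Cpt1a, Cpt1b, Acsl1, Acadm, Acacb, Hadha and Etfdh; up to 4 called genes by p per further list were set to be named, beside Cd36, Lpl, Slc25a20, Mlycd, Ppara, Ppargc1a, Pdk4 and Ucp3. A gene that met this rule is not reported here. Values of other genes were added after they were seen. Plin2 stood on 2 rows, and the one whose ID RefSeq pairs with the symbol was used. Alternatives were DESeq2 1.42.0, its size factors, library size alone, cardiomyocyte scaling, no filter or a stricter filter, a replicate block, a fit limited to the groups compared, and leaving out each library.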

Additional observations from a re-analysis of the deposited data

How the results depend on the processing

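No call reversed under an alternative that was run, but with cardiomyocyte scaling the medians of tumour against control, tumour trained against tumour and the interaction changed sign. The calls of Ehhadh in tumour 3 against control and in tumour trained against tumour 3 held in all 17. Cpt1a held in 15 of 17 and 13 of 17; it was lost with the replicate block (adjusted p = 0.0590 and 0.0610). For tumour against control, the number of the 35 genes called was 1 (with 6.79% of all genes called). It became 2 with DESeq2 (17.8%), 3 with library size alone (15.4%) and 21 with cardiomyocyte scaling (all higher, median 0.504, with 73.4% of all genes called). It was 0 with a stricter filter (0.415%), the replicate block (0.125%) or only the groups compared (0.024%). For tumour trained against tumour the number was 1 (9.05% of all genes). It became 3 with DESeq2 (18.6%), 3 with library size alone (13.2%) and 14 with cardiomyocyte scaling (all lower, median -0.438, with 60.7% of all genes called). It was 0 with the block (0.141%) or only the groups compared (0.0159%). The median interaction was -0.320 with cardiomyocyte scaling. For tumour 3 against control, the median was 0.277 with cardiomyocyte scaling, and 2 of the 35 genes were called (1.5% of all genes). The block called 1 (0.454%), DESeq2 called 3 (2.48%) and the fit of only the groups compared called 3 (1.65%). For tumour trained against tumour 3, the median was -0.116 with library size alone. The block called 1 of the 35 genes (0.369% of all genes) and the fit of only the groups compared called 13 (18.2%). The median of tumour trained against trained in 10 libraries was 0.165 with cardiomyocyte scaling.

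The count of genes with tumour 3 above the other 9 libraries was 15 with library size alone (13.1% of all genes) to 23 with cardiomyocyte scaling (21.6%) over 3 further scalings, chosen after seeing the data, and that below was 3 (14.3%) and 1 (8.6%). Leaving out 1 library at a time, the number of genes called was 0 to 29 for tumour against control (29 without tumour 3, with a median of -1.02; medians -1.02 to -0.155), 0 to 28 for tumour trained against tumour (28 without tumour 3; medians 0.117 to 0.997) and 0 to 24 for the interaction (medians 0.201 to 1.10). It was 1 to 5 for tumour 3 against control, 1 to 9 for tumour trained against tumour 3 and 0 to 3 for trained against control in 10 libraries, the highest each time without trained 2. Without tumour 3 the comparisons with it have no value. The cause of these changes was not tested. Replicate numbers were not found to pair the samples: deviations of same-numbered libraries correlated at -0.326 to 0.282, and a library's best match in another group carried its own number in 7 of 36 cases. With the replicate block, the calls of Acsl3 ended in tumour against control and in tumour trained against tumour. The calls of Cpt1a ended in both comparisons with tumour 3, and those of Ehhadh held. With 1 library, tumour 3 limits the precision of every value set against it.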

Other observations

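Of 14 genes listed under fatty acid synthesis, 5 rose in tumour against control hearts (edgeR, fit of 12 libraries). None of the 14 fell, and 5.33% of all genes were called higher. Fasn, fatty acid synthase, was at 26.3, 27.6 and 29.6 CPM across the tumour trained libraries 1, 2 and 3, 249, 128 and 40.6 CPM across the tumour libraries 1, 2 and 3, 25.4, 29.8 and 23.5 CPM in the trained libraries and 34.9, 30.4 and 30.9 CPM in the controls (log2 2.12 ± 0.46, adjusted p = 0.0390). The desaturase Scd2 and the elongase Elovl6 were at 351, 189 and 19.9 and at 36.3, 8.00 and 0.738 CPM across the tumour libraries 1, 2 and 3, against 15.8 to 22.5 and 0.574 to 1.07 CPM in controls. Other genes of the list had log2 changes below 0 that did not pass. Mlxipl, a transcription factor that responds to carbohydrate, was at 4.91, 15.0 and 32.1 CPM across the tumour libraries 1, 2 and 3, against 35.1 to 40.7 CPM in controls (log2 -1.14 ± 0.45, adjusted p = 0.109). Acss2, an acetyl-CoA synthetase, was at 16.5, 38.7 and 56.4 CPM, against 49.6 to 52.0 CPM (log2 -0.45 ± 0.31, adjusted p = 0.307). As with Acsl3, the levels of Fasn, Scd2 and Elovl6 ran with the melanocyte share, whose part in the result was not tested, and in tumour 3 none of the 14 was called. Each of the 5 calls held without tumour 3 and ended without any 1 of the other libraries. In tumour trained against tumour hearts 7 of the 14 fell and none rose, where 7.25% of all genes were called lower, and each of these 7 calls ended in 9 to 11 of the 12 fits that left out 1 library.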
